A study of Mus musculus with 6 samples.

Results

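The genes of the mitochondrial respiratory chain were examined in single dorsal root ganglion cells of 6 mice. They were taken by name from the deposited table: the 13 protein genes of the mitochondrial genome (symbols that begin with mt-) and 46 nuclear genes that encode subunits of complexes I to V, 59 of 27998 genes in all. The rule names genes and uses no measured value, although it was set with earlier results of these data known. By complex, the mitochondrially encoded members comprised 7 genes of complex I, 1 of complex III, 3 of complex IV and 2 of complex V, and the nuclear members 15, 4, 6, 8 and 13 genes of complexes I, II, III, IV and V.

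The respiratory chain moves electrons from NADH and succinate to oxygen through complexes I to IV and uses the resulting proton gradient to make ATP in complex V, the ATP synthase. Complexes I, III, IV and V are assembled from subunits of both genomes, whereas all subunits of complex II, succinate dehydrogenase, are encoded in the nucleus. The mitochondrial genes are transcribed as long polycistronic precursors inside the organelle, while each nuclear gene has its own promoter. Vitamin E is a lipid-soluble antioxidant of membranes, and Ttpa encodes the liver protein that keeps it in the circulation.

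Dorsal root ganglia hold the cell bodies of sensory neurons, and the labels describe the cells as neurons of these ganglia. The vitamin E deficient group was 2 Ttpa-/- mice on a deficient diet (mouse 654, female, and mouse 657, male) and the supplemented group was 2 Ttpa-/- mice given extra vitamin E (670, male, and 671, female), all aged 6 months. The wild-type group was 2 Ttpa+/+ mice on a basal vitamin E diet (698, female, and 699, male), aged 5 months. In comparisons with wild type, age and diet cannot be told apart from genotype, whereas deficient and supplemented mice differ by diet alone among these labels. Each mouse was 1 library. The labels give no litter or strain. Comparisons between groups rest on 2 animals a group, and in the gene tests all groups share an estimate of the spread. Comparisons between cell classes rest on differences within the 6 mice. Ttpa itself had 4, 5, 1 and 4 unique molecular identifier (UMI) counts in the Ttpa-/- libraries and 0 in both wild-type libraries, where a count of 0 allows up to 3 counts. The labels do not name the deleted part, so these 3' tags check no label.

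The table held 21685 cells, of which 21050 remained after 635 called doublets (2.93%) were removed, and 20394 of these were neurons. Libraries held 2763 to 3835 neurons with median depths of 2598.5 to 4985 UMIs per neuron, lowest in mice 654 and 670. Summed pan-neuronal markers came to 14844 to 16254 CPM (UMIs scaled to the same total in each library) in the neurons of each mouse. Of 21424 distinct barcodes, 261 were found in 2 mice and 0 in 3. Clusters, formed without the 59 genes, gave 5 neuron classes and 1 class with glial markers in which each mouse had at least 20 cells. NF-like cells carried neurofilament and related markers of large mechanosensory and proprioceptive neurons, PEP-like cells those of peptidergic nociceptors, NP1-like and NP3-like cells those of nonpeptidergic neurons marked by Mrgprd or by Sst and Nppb, and TH-like cells those of low-threshold C-fibres. The satellite glia-like cells, with Apoe among their leading genes, also had 12 of 15 pan-neuronal markers in at least 25% of cells. Their 10 satellite glia markers summed to 4667 to 6800 CPM, below the pan-neuronal markers (11199 to 13385) and the 12 PEP markers (6772 to 8140, against 9026 to 10989 in PEP-like cells). The part of neuronal RNA in the values of this class was not tested.

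The mitochondrial genes are packed so tightly that some share bases, which limits what a short 3' tag can tell apart. The coding sequence of mt-Atp8, an ATP synthase subunit, lies at chrM:7766-7969 on the plus strand (204 bases, GRCm38.p6, sequence from GENCODE M21), and its last 43 bases, in capitals, also belong to mt-Atp6:
mt-Atp8: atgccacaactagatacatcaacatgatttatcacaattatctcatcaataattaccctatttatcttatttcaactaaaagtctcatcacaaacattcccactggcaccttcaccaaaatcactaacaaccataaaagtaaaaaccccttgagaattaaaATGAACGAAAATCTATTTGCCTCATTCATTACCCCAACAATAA
The end of mt-Nd4l, a complex I subunit, at chrM:10114-10173 on the plus strand, shares its last 7 bases, in capitals, with mt-Nd4:
mt-Nd4l end: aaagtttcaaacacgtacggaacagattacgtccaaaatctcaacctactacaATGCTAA
The genes mt-Nd5 (chrM:11742-13565, plus strand) and mt-Nd6 (chrM:13552-14070, minus strand) overlap on opposite strands. Values of mt-Atp8, mt-Nd4l and their neighbours are therefore uncertain wherever reads fell in shared bases. The sources used here do not state how reads with several matches were counted, which bears on nuclear copies of mitochondrial genes and on pseudogenes of nuclear members.

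The promoters shown here belong to 4 nuclear members with contrasting patterns over the classes, described further on: 2 subunits of complex II that were highest in different classes, the complex IV member with the highest ratio of NF-like to PEP-like cells, and the nuclear member that did not separate those classes. The windows run from 250 bases before to 50 bases after the annotated start (RefSeq, GRCm38.p6). Capitals mark matches to the cores GCGCATGC (bound by NRF1), CCGGAAG (bound by ETS factors such as GABP) and AAGATGGC (bound by YY1), searched on both strands. The windows lie at chr13:74350191-74350490 (minus strand) for Sdha, chr4:140961021-140961320 (plus) for Sdhb, chr9:57520982-57521281 (plus) for Cox5a and chr7:3617123-3617422 (plus) for Ndufa3:
Sdha: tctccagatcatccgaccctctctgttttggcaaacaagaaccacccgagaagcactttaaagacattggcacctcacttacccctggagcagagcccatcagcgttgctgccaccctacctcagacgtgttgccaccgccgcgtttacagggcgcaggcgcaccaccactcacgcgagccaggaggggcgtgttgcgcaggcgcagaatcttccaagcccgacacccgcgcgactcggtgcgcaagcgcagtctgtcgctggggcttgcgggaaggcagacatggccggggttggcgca
Sdhb: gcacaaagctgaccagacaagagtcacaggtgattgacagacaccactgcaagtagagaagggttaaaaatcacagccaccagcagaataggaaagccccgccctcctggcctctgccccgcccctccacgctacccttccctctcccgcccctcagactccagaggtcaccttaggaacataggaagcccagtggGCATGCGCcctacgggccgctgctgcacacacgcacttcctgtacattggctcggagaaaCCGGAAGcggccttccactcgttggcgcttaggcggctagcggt
Cox5a: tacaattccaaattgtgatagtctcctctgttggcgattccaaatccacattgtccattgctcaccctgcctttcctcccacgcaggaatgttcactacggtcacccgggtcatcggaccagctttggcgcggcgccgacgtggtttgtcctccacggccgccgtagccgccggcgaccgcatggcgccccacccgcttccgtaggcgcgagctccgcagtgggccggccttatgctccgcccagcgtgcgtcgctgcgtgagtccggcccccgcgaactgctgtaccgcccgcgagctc
Ndufa3: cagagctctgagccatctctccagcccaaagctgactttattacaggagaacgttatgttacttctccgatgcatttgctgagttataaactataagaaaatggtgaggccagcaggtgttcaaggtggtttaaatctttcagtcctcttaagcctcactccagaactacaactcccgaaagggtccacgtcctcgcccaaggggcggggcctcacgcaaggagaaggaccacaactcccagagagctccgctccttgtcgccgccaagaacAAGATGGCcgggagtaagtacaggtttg
Sdhb had the NRF1 core, as its reverse complement, from base -54 and the ETS core from base 7 relative to the start. Ndufa3 had the YY1 core from base 23. No such letters were found in the windows of Sdha and Cox5a. Of the nuclear members, 36 had 39 windows in the table. Among these windows 5 (12.8%) held the NRF1 core, 11 (28.2%) the ETS core and 7 (17.9%) the YY1 core, against 2.71%, 8.86% and 2.75% of all 32851 windows. A match is a description of the letters only.

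Nuclear and mitochondrially encoded members followed different orders over the cell classes. The nuclear members together took 4.66% of UMIs in NF-like cells (SD 0.315, n = 6 mice; 4.26 to 5.13), 3.76% ± 0.245 in TH-like, 3.51% ± 0.116 in NP1-like, 3.02% ± 0.149 in NP3-like, 2.39% ± 0.143 in PEP-like and 1.94% ± 0.142 in satellite glia-like cells. The mitochondrially encoded members took 2.48% ± 0.715 in NF-like and 2.22% ± 0.444 in NP1-like cells, 3.31% ± 0.602 in NP3-like, 4.11% ± 0.617 in PEP-like, 4.22% ± 0.696 in TH-like and 5.64% ± 0.451 in satellite glia-like cells. NF-like cells thus had the highest mean nuclear share of the 6 classes and, with NP1-like cells, the lowest mean mitochondrial shares. Among cells with 2000 to 6000 UMIs, a window added after the data were seen, the mitochondrial order changed: NF-like cells were at 3.80%, NP1-like at 3.2% and NP3-like at 3.45%, and NF-like minus NP3-like turned from -0.826 to 0.345 points (4 of 6 mice higher in NF-like, exact permutation adjusted p = 0.425). The log2 ratio of mitochondrially encoded to nuclear member UMIs ran from -0.96 in NF-like to 0.78 in PEP-like and 1.54 in satellite glia-like cells.

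**Figure D1:**
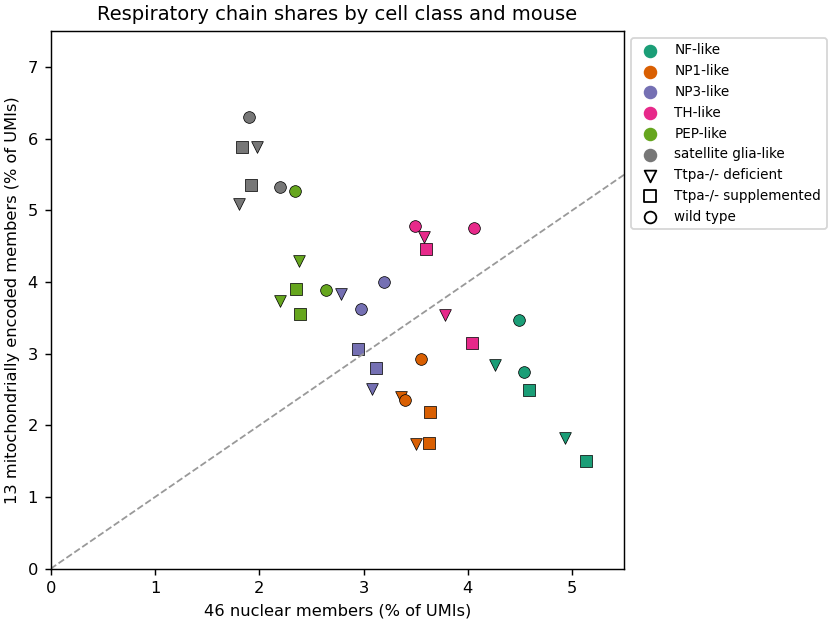
Share of UMIs from the 46 nuclear members (x axis, %) against the 13 mitochondrially encoded members (y axis, %) in each class of each mouse; color gives the class, shape the group, and the dashed line equal shares. All 6 NF-like points lie below the line, at nuclear shares of 4.26 to 5.13%, and all 6 PEP-like and satellite glia-like points lie above it.

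Differences between classes were tested within mice by an exact sign-flip permutation test (two-sided, 45 comparisons; with 6 mice the smallest p is 0.03125, adjusted 0.0343). The nuclear share differed at that smallest p in 14 of 15 class pairs, the mitochondrial share in 13 and the ratio in 14. Pairs that did not pass were, for the nuclear share, NP1-like and TH-like (difference -0.244 percentage points, 1 of 6 mice higher in NP1-like, exact permutation adjusted p = 0.067). For the mitochondrial share they were NF-like and NP1-like (0.258, 5 of 6 mice, exact permutation adjusted p = 0.0981) and PEP-like and TH-like (-0.107, 3 of 6 mice, exact permutation adjusted p = 0.688). For the ratio it was NP3-like and TH-like (-0.0388, exact permutation adjusted p = 0.671). With cells named by a marker gate in place of clusters, the mitochondrial share of PEP-like and TH-like cells came out above that of satellite glia-like cells, by 0.941 and 0.832 points. The PEP-like minus satellite glia-like difference then turned to -0.572 for the nuclear share and 0.672 for the ratio. The ratio of NF-like to NP1-like cells (-0.276) turned to 0.0876 with the gate and 0.342 with medians over cells, and their nuclear difference to -0.00209 with those medians. Calls were also lost with the direction kept. NF-like minus TH-like cells in the nuclear share went from 0.898 to 0.246 with the gate (5 of 6 mice, exact permutation adjusted p = 0.114) and 0.222 with medians (3 of 6 mice, exact permutation adjusted p = 0.425). NP1-like minus NP3-like cells went from 0.495 to 0.0523 in the depth window (exact permutation adjusted p = 0.639). Calls lost or turned numbered 3 of 14 nuclear, 3 of 13 mitochondrial and 4 of 14 ratio pairs with the gate, 4, 2 and 1 with medians, and 2, 5 and 3 in the window. These shares are relative: fewer transcripts of the members and more of other genes cannot be told apart.

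NF-like and PEP-like neurons, chosen after the values were seen as the neuron classes with the highest and lowest nuclear share, were compared gene by gene. The mitochondrial shares of mice 654, 657, 670, 671, 698 and 699 were 1.82, 2.84, 1.51, 2.49, 3.47 and 2.75% in NF-like cells and 3.74, 4.29, 3.56, 3.91, 5.27 and 3.89% in PEP-like cells. Every mouse had the lower value in NF-like cells, and the ranges of the classes did not overlap. The difference was -1.63 ± 0.349 percentage points (SD over 6 mice) for the mitochondrial share, 2.27 ± 0.382 for the nuclear share and -1.74 ± 0.431 for the log2 ratio, each in the same direction in 6 of 6 mice (exact permutation adjusted p = 0.0343).

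Of the nuclear members, 45 of 46 were higher in NF-like than in PEP-like cells in 6 of 6 mice, against 29.6% of the 13334 genes tested. Their median log2 ratio was 0.91, against 0.00 over all genes. The pair was chosen on the summed share of these same 46 genes, so their direction was in part set by that choice. The genes of the background were not chosen in this way, nor matched for expression level. The nuclear count is therefore a description of how widely the members shared the difference. Of the mitochondrially encoded members, 12 of 13 were lower in NF-like cells in 6 of 6 mice, against 28.5% of all genes, with a median of -0.72. All 59 members had passed the filter on low counts. By complex, the nuclear count was 14 of 15 in complex I, 4 of 4 in complex II, 6 of 6 in complex III, 8 of 8 in complex IV and 13 of 13 in complex V, with medians of 0.83, 0.94, 0.90, 1.0 and 0.91. The counts for the other neuron classes were as follows. Nuclear members of NF-like cells were higher in every mouse in 39 and lower in 3 of 46 against NP3-like cells (34.2% and 25% of all genes), in 28 and 5 against NP1-like cells (40.6% and 25.7%) and in 23 and 10 against TH-like cells (36.1% and 25.4%). Mitochondrially encoded members of NF-like cells were higher in every mouse in 0 and lower in 9 of 13 against NP3-like cells. Against NP1-like cells they were higher in 2 and lower in 0, and against TH-like cells higher in 0 and lower in 11. The same shares of all genes apply. Their median log2 ratios were -0.44, 0.29 and -0.69 against NP3-like, NP1-like and TH-like cells.

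Sequencing depth differed between these classes. Median UMIs per cell in a mouse were 3070 to 7992 in NF-like, 4534.5 to 10017 in NP1-like, 2845 to 4863 in TH-like, 2283 to 4299.5 in NP3-like, 1567.5 to 3072 in PEP-like and 1214 to 2268 in satellite glia-like cells. Among cells with 2000 to 6000 UMIs, the nuclear share was still higher in NF-like than PEP-like cells by 1.55 percentage points (6 of 6 mice, exact permutation adjusted p = 0.0426), and 39 of 46 nuclear members were higher in every mouse. The mitochondrial difference fell to -0.349 ± 0.54 (lower in 4 of 6 mice, exact permutation adjusted p = 0.246), and only 3 of 13 mitochondrial members were lower in every mouse. Both counts of members in the window lack a background, since all genes were not counted there. The ratio differed by -0.966 in the window (6 of 6 mice, exact permutation adjusted p = 0.0426). The nuclear difference thus passed with depth restricted, and the mitochondrial difference did not. Depth was not equal inside the window, with a median of 3800.5 UMIs in NF-like and 2778 in PEP-like cells. The part of this remaining depth difference was not tested.

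Other RNA moved with the same classes. Summed nuclear-retained RNAs (4 genes, Malat1 among them) were 798 to 1954 CPM in NF-like and 10970 to 18955 in PEP-like cells, and summed satellite glia markers (10 genes) 341 to 571 and 577 to 1325 CPM. The 15 pan-neuronal markers summed to 16357 to 17685 and 14642 to 16156 CPM. The 15 immediate early genes, which respond to stimulation and to cell dissociation, summed to 1052 to 1318 CPM in NF-like and 2553 to 3049 CPM in PEP-like cells, with 12 of 15 lower and 2 higher in NF-like cells in every mouse. The part of nuclear-retained, glial and immediate early RNA in the class differences was not tested.

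Complex II, the only complex without a mitochondrially encoded subunit, had members that were highest in different classes. Sdha, the flavoprotein that oxidises succinate, stood at 303, 295, 249, 306, 328 and 252 CPM in NF-like cells of the 6 mice (in the order above) and at 82.6, 105, 86.3, 101, 96.1 and 83.3 CPM in NP1-like cells. Its lowest NF-like value was above every other neuron value, and the ratio of means was 3.13. Sdhb, the iron-sulfur subunit that takes the electrons from Sdha, went the other way. It stood at 270, 216, 218, 185, 212 and 223 CPM in NF-like cells and 379, 391, 382, 334, 388 and 347 CPM in NP1-like cells, a ratio of 0.596 with no overlap. The membrane anchors Sdhc and Sdhd were highest in NF-like (108 ± 6.43 CPM, SD, n = 6) and TH-like cells (146 ± 25.9), respectively, each in 6 of 6 mice. All 4 genes were nonetheless higher in NF-like than PEP-like cells in every mouse, by 1.84, 1.24, 2.03 and 2.28 times for Sdha, Sdhb, Sdhc and Sdhd.

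Complex I, the NADH dehydrogenase, showed a similar division among its 15 nuclear members. Ndufs1, which holds iron-sulfur clusters, was highest in NF-like cells in 6 of 6 mice (37.1 ± 3.47 CPM against 17.9 ± 2.42 in PEP-like, 2.08 times). Ndufv1, the subunit that binds NADH, was instead highest on average in TH-like cells (196 ± 28.7 CPM). In NF-like cells it stood at 93.8, 96.7, 84.4, 91.7, 89.1 and 96.3 CPM and in NP1-like cells at 155, 201, 150, 159, 180 and 182, so NF-like cells were lower in every mouse (ratio 0.538). Ndufa9 and Ndufa10 had the same order, with ratios of NF-like to NP1-like cells of 0.655 and 0.760 and 0 of 6 mice higher in NF-like cells. Ndufa4, listed with complex I although it is also found in complex IV, was 2.15 times as high in NF-like as in PEP-like cells. Ndufa3, an accessory subunit, was the exception to the NF-like excess: 345, 255, 359, 332, 267 and 333 CPM in NF-like against 231, 253, 263, 299, 276 and 342 CPM in PEP-like cells. Its ranges overlapped, with NF-like cells higher in 4 of 6 mice and PEP-like cells at 0.88 times their mean.

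In complex III, the cytochrome bc1 complex, Cyc1 encodes cytochrome c1, which hands electrons to cytochrome c. It stood at 270, 275, 257, 249, 260 and 260 CPM in NF-like cells and at 117, 109, 100, 85.0, 97.6 and 106 CPM in PEP-like cells, 2.56 times as high with no overlap. Uqcrc1, a core protein of the complex, was highest on average in TH-like cells (258 ± 44.5 CPM, SD, n = 6) and lowest in PEP-like cells (97.2 ± 13.2) in 6 of 6 mice. Uqcrh, the hinge protein, was 1.73 times as high in NF-like as in PEP-like cells.

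Complex IV, cytochrome c oxidase, held the nuclear member with the highest ratio of NF-like to PEP-like cells. Cox5a stood at 1960, 1789, 2022, 1674, 1970 and 1739 CPM in NF-like and 546, 595, 583, 504, 512 and 603 CPM in PEP-like cells. The ranges were far apart, and the ratio was 3.34. Cox4i1, the largest nuclear subunit of the complex, was 2.02 times as high, and Cox6c, Cox7a2 and Cox8a were 2.29, 2.20 and 1.92 times as high. Cox6a1 was highest in NP1-like cells in 6 of 6 mice (1559 ± 66.7 CPM against 1165 ± 108 in NF-like).

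In complex V, Atp5g1 encodes the c subunit, whose copies form the rotor ring. It stood at 2736, 2257, 2815, 2264, 2345 and 2168 CPM in NF-like and 704, 781, 780, 701, 707 and 832 CPM in PEP-like cells, a ratio of 3.24. Atp5g3, which encodes the same mature c subunit, had a ratio of 2.71, and Atp5a1, the catalytic core's alpha subunit, 2.40. The beta subunit gene Atp5b was highest in TH-like cells in 6 of 6 mice (598 ± 64.5 CPM) and 1.76 times as high in NF-like as in PEP-like cells. Atp5e, the epsilon subunit, had the lowest ratio of the complex, 1.32, and on average its lowest neuron value in TH-like cells (408 ± 34.9 CPM).

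**Figure D2:**
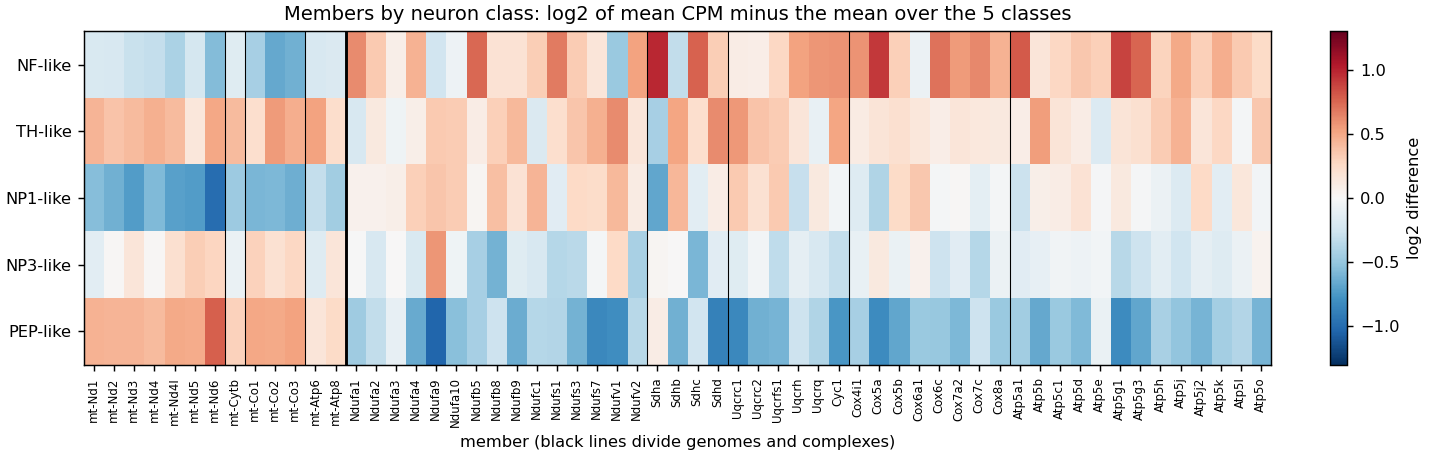
Each of the 59 members (columns, grouped by genome and complex) in the 5 neuron classes (rows); color is the log2 of the mean CPM over 6 mice minus the gene's mean over the classes, red higher and blue lower. The nuclear block is mostly red for NF-like cells and blue for PEP-like cells, with Sdhb, Ndufa9 and Ndufv1 blue in NF-like cells, and the mitochondrial block has the reverse colors.

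Over the 5 neuron classes, 29 of 46 nuclear members had their highest mean in NF-like cells, 12 in TH-like, 4 in NP1-like and 1 (Ndufa9) in NP3-like cells. Their lowest mean was in PEP-like cells for 38, in NP3-like for 5, in NP1-like for 2 (Sdha and Uqcrh) and in TH-like for 1 (Atp5e). The mitochondrially encoded members were highest in PEP-like (9 of 13) or TH-like cells (4) and lowest in NP1-like cells (12) or, for mt-Co2, NF-like cells. The highest and lowest class was not counted over all genes, so these counts have no background.

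The ratio of NF-like to PEP-like cells varied among the mitochondrially encoded members; the ratios were not tested against each other, and in the depth window only 3 of the 13 members were lower in every mouse. The 3 subunits of the catalytic core of complex IV, mt-Co1, mt-Co2 and mt-Co3, had ratios of NF-like to PEP-like cells of 0.527, 0.448 and 0.450, and mt-Nd6, the complex I gene on the other strand, 0.394 on 291 UMIs in NF-like cells. The ratios of mt-Cytb, the cytochrome b of complex III, and of mt-Atp6, the ATP synthase channel subunit, were 0.732 and 0.775. For mt-Co2 the values were 949, 1253, 900, 1108, 1633 and 1370 CPM in NF-like and 2555, 2503, 2776, 2353, 3385 and 2531 CPM in PEP-like cells. The ranges did not overlap. For mt-Atp6 they were 5432, 8724, 4051, 7330, 10785 and 8629 CPM in NF-like and 8982, 9811, 8441, 8945, 12977 and 8842 CPM in PEP-like cells. These ranges overlapped, though each mouse had the lower value in NF-like cells. TH-like cells had the highest mt-Atp6 of the neuron classes in 6 of 6 mice (9313 to 15412 CPM), and mt-Atp8 was the member that did not separate the classes, with 1 mouse higher in NF-like cells.

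Lists of related genes gave counts for the same pair of classes, read against the 29.6% of all genes that were higher and the 28.5% that were lower in NF-like cells in every mouse. Other subunits of complex I were higher in 20 of 22 and lower in 0, and other subunits of complexes III to V with cytochrome c were higher in 13 and lower in 1 of 15. Genes of the tricarboxylic acid cycle, which feeds the chain with electrons, were higher in 12 and lower in 1 of 13, and glycolysis genes were higher in 8 and lower in 3 of 16. Of the genes that maintain and transcribe mitochondrial DNA and its RNA, 12 of 22 were higher and 1 lower. Assembly factors (12 higher and 4 lower of 29) and regulators of mitochondrial biogenesis (4 and 2 of 11) lay nearer to the share of all genes. The share of all genes was not matched for expression level, in which the lists differed. In summed neurons the 29 assembly factors came to 2122 to 2377 CPM and the 11 regulators to 227 to 242 CPM. The part of level in these counts was not tested. Mitochondrial ribosomal protein genes were higher in 40 and lower in 5 of 73, whereas cytosolic ones were higher in 1 and lower in 67 of 74.

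The named classes were not uniform, and clusters within them are given as a description. Among NF-like cells, the cluster led by S100a16 with Ntrk3 (627 cells, median depth 7645 UMIs) had a mitochondrial share of 0.94% (0.51 to 1.52 over mice) and a nuclear share of 5.18%. The Pvalb-led cluster (684 cells, 3805.5 UMIs) had 3.87% and 4.28%, the Ntrk2 cluster (601 cells, 5174 UMIs) 3.6% and 5.40%, and the Calb1-led cluster (750 cells, 5981 UMIs) 2.59% and 3.61%. All 4 had more nuclear than mitochondrial member UMIs on average. TH-like cells fell into a cluster led by Ceacam10 with Th (1803 cells, 5151 UMIs) at 2.94% mitochondrial and 4.67% nuclear, and clusters led by Slc17a8 (1626 cells, 3180 UMIs) and Spry2 (573 cells, 3468 UMIs) at 6.04% and 5.78% mitochondrial and 2.55% and 2.43% nuclear. The Ceacam10 cluster was the largest TH-like cluster in mice 654, 670 and 698 and the Slc17a8 cluster in mice 657, 671 and 699, so means of the TH-like class mix these in different proportions. Among PEP-like cells the Smr2-led cluster (602 cells, 5368 UMIs) had 2.21% and 3.12%, and the Sstr2-led cluster (2272 cells, 1962 UMIs) 5.95% and 2.13%. The Slc5a7-led cluster (1135 cells, 2977 UMIs) had 4.1% and 2.19%, and the Fgg-led cluster (1642 cells, 2779.5 UMIs) 3.9% and 2.19%. Mitochondrial shares of the latter PEP-like clusters were thus near those of the NF-like Pvalb-led and Ntrk2 clusters.

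Depth and the 2 shares moved together within each library as well. From the shallowest to the deepest quartile of neurons, the mitochondrial share went from 4.54 to 1.58% in mouse 654, 5.86 to 2.16% in 657, 4.47 to 1.53% in 670, 4.96 to 2.06% in 671, 6.91 to 2.75% in 698 and 5.35 to 2.20% in 699. The nuclear share went from 2.31 to 4.03%, 2.26 to 3.90%, 2.46 to 4.28%, 2.33 to 4.12%, 2.22 to 4.12% and 2.34 to 4.20% in the same mice. The direction was opposite for the 2 genomes and the same in all 6 libraries. In mouse 654 the median cell had 63 mitochondrial member UMIs in the shallowest and 92 in the deepest quartile, against 28 and 236 nuclear member UMIs. Within NF-like cells of that mouse the shares went from 2.45 to 1.18% and from 3.29 to 6.45%, and within PEP-like cells from 5.67 to 2.49% and from 1.69 to 2.73%.

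**Figure D3:**
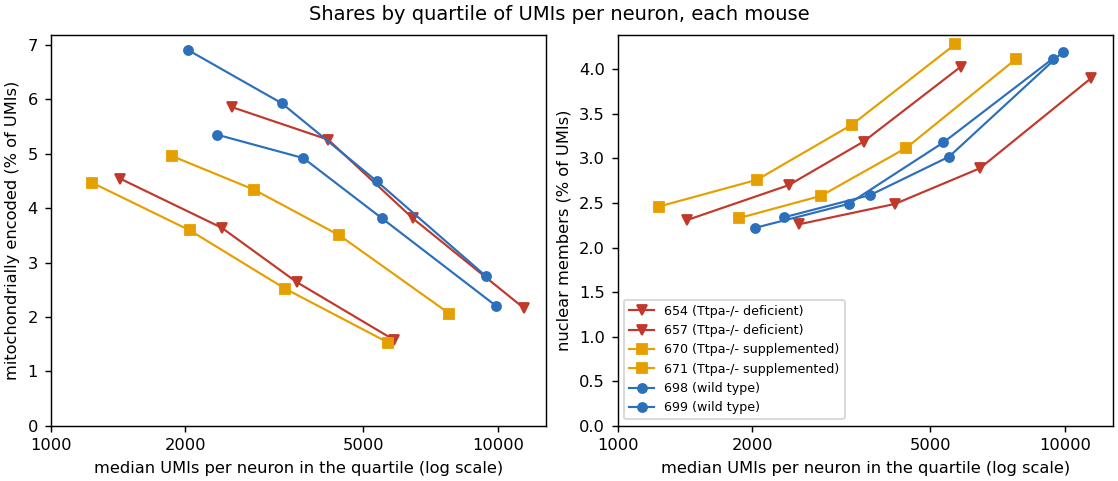
Mitochondrially encoded (left) and nuclear (right) member shares (% of UMIs) by quartile of UMIs per neuron, plotted at the quartile's median depth (log axis), 1 line per mouse, colored by group. The left lines fall and the right lines rise in all 6 mice, and lines of mice 654 and 670 lie lowest on the left at every depth.

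Between the groups, no respiratory chain gene passed the test in summed neurons, and the lower values that were seen, mostly in mitochondrially encoded members, were about as large as the spread between mice of a group. The mitochondrial share was 2.53 and 3.46% in the deficient mice 654 and 657, 2.42 and 3.10% in the supplemented mice 670 and 671, and 4.12 and 3.38% in the wild-type mice 698 and 699. Supplemented mice lay below both wild-type mice, and deficient mouse 657 lay between them. The nuclear share was 3.4, 3.25, 3.61, 3.43, 3.43 and 3.44% in the same order. It varied little among mice. The mitochondrial values rest on 284911 to 690224 UMIs per mouse and the nuclear values on 426012 to 638425.

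The mitochondrial share differed from wild type by -0.756 percentage points in deficient mice (exact permutation p = 0.667, adjusted over 12 tests 0.728) and by -0.993 in supplemented mice (exact permutation p = 0.333, adjusted 0.666). With 2 mice a group no p below 0.333 is possible. For all 4 Ttpa-/- mice against wild type the difference was -0.874 (exact permutation p = 0.2, smallest possible 0.0667, adjusted 0.666). Single mice moved these values: the deficient difference was -0.291 without mouse 654, -0.382 without 698, -1.13 without 699 and -1.22 without 657, and the supplemented difference -0.619 without 698, -0.652 without 670, -1.33 without 671 and -1.37 without 699. The nuclear share differed by -0.114 and 0.0853 points and the log2 ratio by -0.287 and -0.482 in deficient and supplemented mice. Leaving out 1 mouse gave ratios from -0.546 (without 657) to -0.0275 (without 654; -0.139 without 698, -0.434 without 699) in deficient mice and from -0.699 (without 671) to -0.266 (without 670) in supplemented mice. The nuclear difference in deficient mice ran from -0.19 (without 654) to -0.0375 (without 657), and in supplemented mice from -0.00616 (without 670) to 0.177 (without 671). Deficient and supplemented mice, which differ by diet within 1 genotype, differed by 0.236 points in the mitochondrial and -0.199 points in the nuclear share. No difference in the shares passed, with a smallest adjusted p of 0.666 by the exact permutation test.

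**Figure D4:**
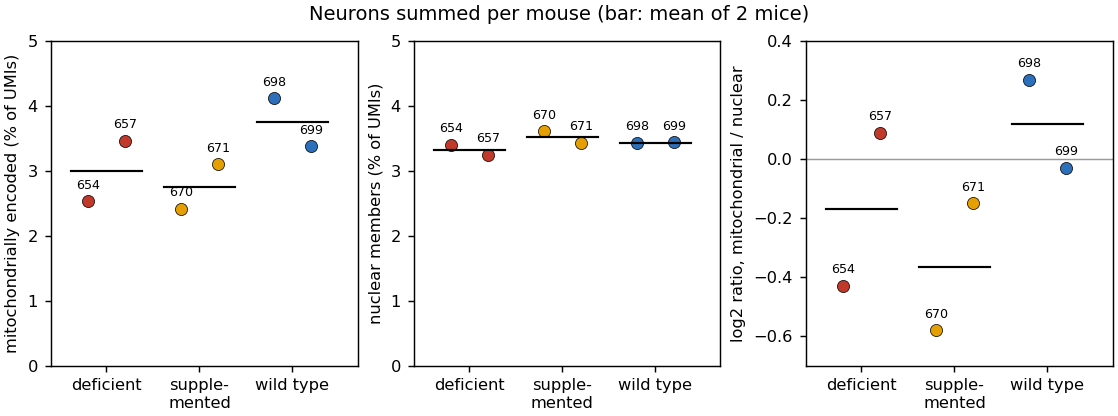
Mitochondrial share, nuclear share (both % of UMIs) and their log2 ratio in summed neurons of each mouse (points, numbered by mouse) with the mean of the 2 mice of a group (bars). The nuclear shares lie between 3.25 and 3.61%, while the mitochondrial shares spread from 2.42 to 4.12% and overlap between deficient and wild-type mice.

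Gene by gene, edgeR's quasi-likelihood test with Benjamini-Hochberg adjustment called 0 of 59 members for deficient against wild-type, 0 for supplemented against wild-type and 0 for deficient against supplemented mice, where 0.0%, 0.0% and 0.0% of 13334 genes were called. At an unadjusted p under 0.05 there were 6, 6 and 1 members, all mitochondrially encoded, and 517, 505 and 321 genes. DESeq2 called 0 members in each comparison, where it called 2, 13 and 0 of 13334 genes. With limma-voom 0 members and 0, 0 and 0 genes were called. At an unadjusted p under 0.05 DESeq2 had 8, 6 and 2 members and limma-voom 6, 6 and 1. Counts of all genes at that p are not given for these tools, so those counts of members have no background. The median log2 fold change of the mitochondrially encoded members was -0.37 in deficient mice (0 of 13 above 0; -0.59 to -0.14) and -0.41 in supplemented mice (1 of 13 above 0, mt-Nd6; -0.58 to 0.04). These comparisons share the wild-type mice. For nuclear members the medians were 0.00 (24 of 46 above 0; -0.23 to 0.20) and -0.03 (18 of 46), and for all genes 0.005 and -0.007. Within groups, the median log2 CPM of the mitochondrially encoded members had an SD of 0.339 between mice, close to those differences, and that of the nuclear members 0.0396. With both Ttpa-/- groups against wild type, edgeR called 0 members and 0.0% of genes, with 9 members (all mitochondrially encoded) and 597 genes at an unadjusted p under 0.05 and a mitochondrial median of -0.39. Without the filter on low counts 4 members were called in that comparison (mt-Cytb, mt-Co3, mt-Atp6 and mt-Atp8). The share of all genes called without the filter is not given here, so this count has no background. Without mouse 654 the mitochondrial median in deficient mice was -0.16 and without wild-type mouse 698 -0.23; without 698 the median in supplemented mice was -0.29.

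Counts of genes whose groups did not overlap were also taken. Both deficient mice lay below both wild-type mice for 7 of 13 mitochondrially encoded members (mt-Nd2, mt-Nd3, mt-Nd4l, mt-Nd5, mt-Co2, mt-Co3 and mt-Atp8), against 15.1% of all genes, and for 6 of 46 nuclear members; they lay above both for 0 mitochondrially encoded and 7 nuclear members, against 16.2% of all genes. Both supplemented mice did for 8 of 13 (mt-Nd1, mt-Nd5, mt-Cytb, mt-Co1, mt-Co2, mt-Co3, mt-Atp6 and mt-Atp8), against 10.5% of all genes, and for 3 nuclear members, and above both for 0 and 7 (Ndufa2, Ndufc1, Sdhc, Uqcrq, Cox5b, Cox8a and Atp5l), against 18.0%. All 4 Ttpa-/- mice lay below both wild-type mice for 4 of 13 (mt-Nd5, mt-Co2, mt-Co3 and mt-Atp8), against 4.46% of all genes, and for 1 nuclear member. Mitochondrial transcripts come from shared precursors, so these genes are not independent.

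Individual values show the size of the spread. The transcript of mt-Nd3, a membrane subunit of complex I, stood at 135 and 125 CPM in deficient, 147 and 195 in supplemented and 161 and 194 CPM in wild-type mice. Both deficient mice were lowest, with a log2 fold change of -0.45 ± 0.16 (SE, edgeR adjusted p = 0.992) against wild type and -0.38 ± 0.16 (edgeR adjusted p = 1.0) against supplemented mice. For mt-Atp8 the values were 25 and 15.4, 26.1 and 20.9, and 26.2 and 34.0 CPM, and deficient mice were -0.59 ± 0.21 from wild type (edgeR adjusted p = 0.992). For mt-Co2, which carries the copper site that receives electrons from cytochrome c, they were 1596 and 1960, 1701 and 1705, and 2456 and 2069 CPM. All 4 Ttpa-/- values were below both wild-type values, and supplemented mice were -0.44 ± 0.15 from wild type (edgeR adjusted p = 0.958). For mt-Atp6 they were 7165 and 9488, 6589 and 8385, and 12055 and 9225 CPM, with supplemented mice at -0.53 ± 0.18 (edgeR adjusted p = 0.958).

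The nuclear members with the smallest p in deficient against wild-type mice were Atp5e (-0.23 ± 0.13), Atp5j2 (-0.19 ± 0.13), Cox6c (-0.17 ± 0.13) and Ndufa3 (-0.18 ± 0.14), each with an edgeR adjusted p of 0.992. These genes encode small subunits of complexes V, V, IV and I. By complex, 0 of 8 nuclear members of complex IV lay above 0 (median -0.06), against 11 of 15 in complex I (median 0.03). In supplemented against wild-type mice they were Atp5k (0.21 ± 0.18), Atp5h (-0.14 ± 0.14), Sdhd (-0.16 ± 0.15) and Ndufc1 (0.14 ± 0.14), with an edgeR adjusted p of 1.0. In deficient against supplemented mice they were Atp5k (-0.35 ± 0.18), Ndufv1 (0.26 ± 0.13), Ndufa3 (-0.22 ± 0.14) and Uqcrc1 (0.23 ± 0.15), and mt-Nd2 followed mt-Nd3 among the mitochondrial members (-0.22 ± 0.16), all with an edgeR adjusted p of 1.0.

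**Figure D5:**
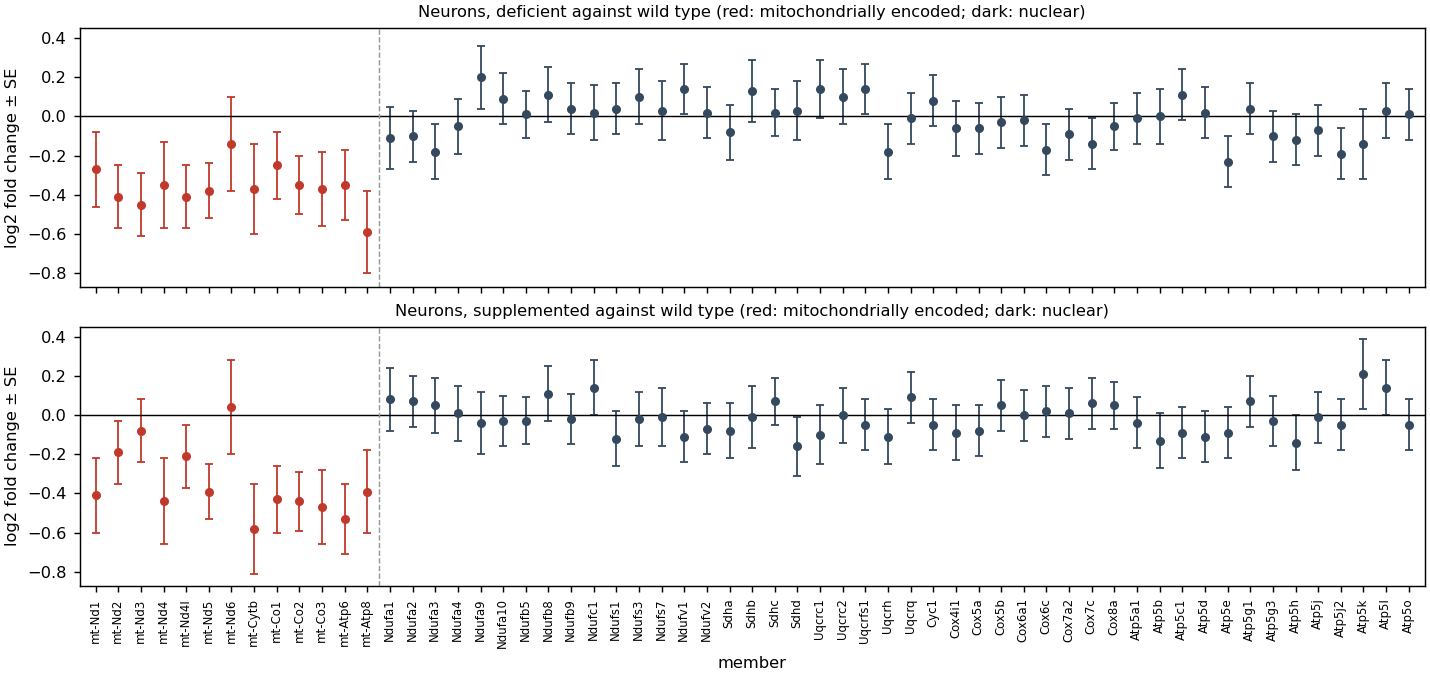
Log2 fold change against wild type (y axis, edgeR, ± SE) of each member in summed neurons of deficient (top) and supplemented mice (bottom), mitochondrially encoded members in red and nuclear members in dark blue. Red points lie between -0.59 and -0.14 in the top panel and between -0.58 and 0.04 in the bottom panel, while nuclear points scatter around 0; no point passed the test.

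Values that differ between the libraries accompanied the mitochondrial share. Over the 6 mice it went with median depth per neuron (Pearson's r = 0.77, permutation p = 0.075, adjusted over 3 relations 0.121; Spearman's rho = 0.83, permutation p = 0.0583, adjusted 0.175), with r = 0.80 without mice 657 and 670. The sign is opposite to that within libraries. For the nuclear share r was -0.76 (permutation p = 0.0806, adjusted 0.121) and rho -0.49 (permutation p = 0.356), but r was 0.92 without those 2 mice, so the relation rests on them. The 2 shares gave r = -0.46 and rho = -0.49 (permutation p = 0.333 and 0.356; r = -0.36 without mice 670 and 698). Within neurons of 2000 to 6000 UMIs the mitochondrial share was 2.62, 5.22, 2.38, 3.86, 5.56 and 4.70% in mice 654, 657, 670, 671, 698 and 699, and mice 654 and 670 were again lowest. In those neurons the nuclear share was highest in mouse 670 (3.61%) and lowest in mouse 657 (2.48%). Nuclear-retained RNAs summed to 8526, 6386, 10023, 10139, 5221 and 7862 CPM in neurons, with 4 of 4 genes at higher group means in both Ttpa-/- groups than in wild type. The 5 erythroid markers summed to 114, 37.2, 215, 39.1, 8.6 and 37.6 CPM and the 10 satellite glia markers to 517, 445, 640, 859, 529 and 428 CPM. Cytosolic ribosomal protein genes summed to 73222, 78379, 71215, 85155, 72656 and 90506 CPM, lower in mice 654, 670 and 698, 1 of each group, than in the others. The part of depth, erythroid, glial, ribosomal and nuclear-retained RNA in the group values was not tested.

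The classes were also fitted separately, and no member was called in any of the 6 classes, where edgeR called 0.0172%, 0.101% and 0.00191% of 52255 tests for deficient against wild-type, supplemented against wild-type and deficient against supplemented mice. In deficient mice the mitochondrially encoded members had a median log2 fold change of -0.46 in NF-like (7 of 13 at an unadjusted p under 0.05), -0.40 in NP1-like (10), -0.36 in NP3-like (4), -0.26 in PEP-like (2), -0.31 in TH-like (1) and -0.14 in satellite glia-like cells (0 of 12 tested). In supplemented mice the medians were -0.55, -0.36, -0.37, -0.30, -0.26 and 0.00. Whether the classes differ in this was not tested. Counts of all genes at an unadjusted p under 0.05 in each class are not given here. The counts of members at that p therefore have no background. Nuclear members had medians between -0.10 and -0.01 in deficient and between -0.11 and 0.01 in supplemented mice over the 6 classes.

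Within classes, the mitochondrial members with the smallest p in deficient against wild-type mice were low-count genes. In NF-like cells mt-Nd4l stood at 32.6 and 37.6 CPM in deficient, 28.3 and 49.0 in supplemented and 59 and 52.5 CPM in wild-type mice. All 4 Ttpa-/- mice were below both wild-type mice, with a log2 fold change of -0.67 ± 0.21 for the deficient mice (edgeR adjusted p = 0.999). In NP1-like cells it was mt-Nd3 (-0.56 ± 0.16, edgeR adjusted p = 0.744), and in NP3-like cells mt-Atp8 (-1.09 ± 0.33, edgeR adjusted p = 1.0). PEP-like, TH-like and satellite glia-like cells had mt-Nd3 (-0.36 ± 0.15), mt-Atp8 (-0.63 ± 0.24) and mt-Nd5 (-0.41 ± 0.32). The nuclear members were Atp5j2 in NF-like (-0.21 ± 0.16) and NP1-like cells (-0.19 ± 0.12), Ndufa3 in NP3-like (-0.39 ± 0.17) and PEP-like cells (-0.40 ± 0.16), and Atp5e in TH-like (-0.28 ± 0.18) and satellite glia-like cells (-0.61 ± 0.27). None passed. Calls of mitochondrially encoded members appeared in NF-like cells without supplemented mouse 671 and in NP1-like cells without deficient mouse 657. Each of these fits leaves 1 mouse alone in its group and assumes that it varies like the others. The share of all genes called in them is not given here, so the calls have no background.

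Related genes gave no call in summed neurons by edgeR in the 3 comparisons. The regulator Ppargc1a, a coactivator of mitochondrial biogenesis, and Tfam, which packages and transcribes mitochondrial DNA, had the smallest p of their lists in deficient against wild-type mice, at -0.40 ± 0.21 and -0.33 ± 0.17 (edgeR adjusted p = 0.992 for both). The complex I assembly factor Timmdc1 had the smallest p of its list in both comparisons with wild type (0.49 ± 0.19 in deficient and 0.63 ± 0.19 in supplemented mice, edgeR adjusted p = 0.992 and 0.791). Other subunits of complexes III to V with cytochrome c lay above 0 in 3 of 15 (median -0.11) in deficient mice, and other complex I subunits in 8 of 22 (median -0.01). Mitochondrial ribosomal protein genes lay above 0 in 54 of 73 in deficient mice (median 0.06) and 20 of 73 in supplemented mice (median -0.04), and cytosolic ones in 10 of 74 in each (medians -0.11 and -0.12).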

How the data were processed

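The values analysed were whole UMI counts per gene and cell in 1 deposited table of 27998 genes and 21685 cells from 3' droplet libraries of 6 mice. Per the submitters' processing notes, the authors used bcl2fastq 2.17.1.14, Cell Ranger 2.0.1, the mm10 build, Seurat 2.3.0 and limma 3.32.10; the sources used here do not state how cells were selected or how reads with several matches were counted. The members, lists and tests were chosen with earlier results of these data known.

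Cells with at least 500 genes were kept (0 removed), with no limit on the mitochondrial share, since the members make it up. Doublets were scored per mouse with scrublet in scanpy 1.11.5. Its automatic threshold marked 36 cells (0.166%), so the expected rate of 0.8% per 1000 cells was used. Leiden clustering (2000 variable genes without the members, 30 components, 15 neighbours, resolution 1) gave 23 clusters, of which 20 were named from markers. A gate on the markers gave the same class to 85.7% of the gated cells that lay in named clusters. Gated cells in unnamed clusters are not in this percentage. The gate gave 589 to 899 NF-like and 200 to 466 NP1-like cells a mouse, against 314 to 563 and 380 to 892 by clusters. Counts were summed per mouse over neurons (11788915 to 18533613 UMIs) and classes.

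edgeR 4.0.16 (TMM, filterByExpr, quasi-likelihood F test, 1 mean per group) was fitted to all genes with Benjamini-Hochberg adjustment at 0.05. The biological coefficient of variation was 12.3% in neurons. The edgeR fit of summed neurons was tested on simulated counts with known folds, and the permutation and adjustment functions on small inputs with known answers. Clustering, doublet calling and the naming of classes were not tested in this way. Shares were compared by exact permutation. Members with a tested fold are those with the smallest p in each comparison (2 mitochondrially encoded and 4 nuclear in neurons, 1 of each per class). Alternatives were RLE size factors, no filter on low counts, DESeq2 1.42.0, limma-voom 3.58.1, sex as a term, leaving out each mouse, other filters on cells, thinning and an equal class mix. Promoters and overlaps came from RefSeq and GENCODE tables of GRCm38.p6. Classes and clusters with under 20 cells in a mouse were not tested.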

Additional observations from a re-analysis of the deposited data

How the results depend on the processing

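Leaving out 1 mouse removes every call between classes by construction, since 5 mice allow no exact p below 0.0625: 0 class pairs pass for each of the 3 measures, while the NF-like minus PEP-like differences stay at -1.73 to -1.55 (mitochondrial share), 2.18 to 2.35 (nuclear share) and -1.83 to -1.61 (log2 ratio). Among cells with 2000 to 6000 UMIs the mitochondrial difference was -0.349 and the count of mitochondrial members lower in every mouse 3. Without a filter on low counts 1 member (mt-Atp8, -0.61) was called in deficient and 2 (mt-Cytb and mt-Atp6, the latter -0.55) in supplemented against wild-type mice, and 4 for both Ttpa-/- groups together. These counts are given without the share of all genes called in the same fits. Leaving out mice gave 0 to 6 calls in NF-like cells of supplemented mice (6 without 671) and 0 to 1 in NP1-like cells of deficient mice (1 without 657), with the remaining mouse of the group assumed to vary like the others. The median of the nuclear members was -0.04 to 0.03, -0.08 to 0.03 and -0.05 to 0.05 with a mouse left out for deficient against wild-type, supplemented against wild-type and deficient against supplemented mice, 0.19, 0.30 and -0.09 in the depth window, and -0.04 and -0.07 with the same class mix for the comparisons with wild type. The mitochondrial median in supplemented mice was -0.69 in the window. Deficient minus supplemented ranged from -0.229 (without 657) to 0.702 for the mitochondrial share, -0.104 without 670, and from -0.0634 (without 657) to 0.455 for the log2 ratio, -0.0206 without 670. The nuclear share of supplemented minus wild-type mice was -0.00616 (without 670) to 0.177, and that of deficient minus wild-type mice turned to 0.0453 with medians over cells and 0.243 in the window. Single genes that turned sign were Atp5j2 (0.05), Atp5h (0.11), Sdhd (0.24) and Uqcrc1 (-0.06) in the window, Atp5e in gated satellite glia-like cells (0.26), and, with a mouse left out, Atp5k (-0.03 to 0.49), Sdhd (-0.34 to 0.02) and mt-Nd2 (-0.41 to 0.00). Apart from the leave-one-out counts, the cause of these changes was not tested. The alternatives for class pairs other than leaving out a mouse were chosen after seeing the data where they concern the depth window, doublets or the denominator. The mouse numbers are not shared between groups, so no replicate number could serve as a block in comparisons of groups. With sex, of which each group had 1 mouse each, as a term, 0 members were called and the mitochondrial medians were -0.35, -0.41 and 0.09 in the 3 comparisons.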

Other observations

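Neuron clusters outside the tested classes also differed in their respiratory chain shares, given here as values with no test. TRPM8-like cells (297, with 19 in 1 mouse), which carry markers of cold-sensing neurons, had the highest mean mitochondrial share of the named groups, 7.55% (SD 1.36, n = 6 mice; 6.30 to 9.71), at a nuclear share of 3.28% ± 0.058. An unnamed neuron cluster led by Dcn, Nhlh2 and Klhl1 (352 cells) combined 6.03% ± 0.79 mitochondrial with 1.89% ± 0.06 nuclear UMIs. The unnamed clusters led by Mrgpra3 (1030 cells) and by Fam19a1 (843 cells) had 2.63% and 2.67% mitochondrial and 2.85% and 2.95% nuclear UMIs, so their nuclear shares were below that of NP1-like cells at a similar mitochondrial share. Median depths were 1960, 2139.5, 5080 and 4983 UMIs in these 4 clusters. Endothelial-like cells (55) had 5.01% and 1.85%, and macrophage-like cells (106, with 1 in mouse 657) 3.65% and 2.78%.

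Cells with over 10% mitochondrial member UMIs were unevenly spread over the libraries: 37, 43, 32, 33, 140 and 31 neurons in mice 654, 657, 670, 671, 698 and 699. Removing them left the median log2 fold change of the mitochondrially encoded members at -0.35 in deficient and -0.38 in supplemented against wild-type mice.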
